A study of Mus musculus with 2 samples.

Results

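The genes described are the axon guidance ligands and receptors of the mouse: the semaphorins with their plexin and neuropilin receptors, the ephrins with the Eph receptors, the Slits with the Robos, and the netrins and netrin-G genes with Dcc and the Unc5 receptors. They were chosen by symbol alone, as all genes of the deposited matrix whose symbol belongs to one of these families, and no measured value entered the choice. Of 32286 genes in the matrix, 73 met it. They are 70 coding genes and 3 antisense transcripts, Plxna4os1, Plxna4os2 and Plxna4os3, which lie within Plxna4 on the opposite strand and were taken in by the first letters of their symbols. The 73 genes fall into 12 families and held 0.594% of the UMIs (unique molecular identifiers, 1 for each RNA molecule counted) in females and 0.592% in males.

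Guidance molecules steer growing axons. A growth cone turns towards or away from a ligand according to the receptors on its surface, and many ligands are read by more than one receptor. In the adult nerve the same families also act in Schwann cells, blood vessels, fibroblasts and immune cells, and several receptors stay on in mature sensory neurons. Vagal sensory neurons differ in embryonic origin: the neurons of the nodose ganglion come from the epibranchial placodes and those of the jugular ganglion from the neural crest.

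RNA of single nuclei was sequenced from vagus nerve ganglia of female and male mice, pooled by sex. The female library came from 14 ganglia of 7 mice and the male library from 16 ganglia of 8 mice, so that each sex is 1 library. All mice carried the Rosa26-floxed-STOP-Cas9-eGFP allele, were fed standard chow, were 8 to 9 weeks old at purchase, and had received AAVrg-Cre in the liver 4 weeks before the ganglia were taken. The text of the study does not state their background strain. No group without the virus was included, the virus reaches only some of the neurons, and pooling leaves no animal to compare within a sex. With 1 library per sex the sexes could not be tested. Contrasts between classes were measured within each library and are given for both, with no test and no p-value. Intervals in square brackets are 95% intervals of the counts, which cover counting error only, and sex and library cannot be told apart.

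The female library held 17435300 UMIs over 3791 nuclei (median 2381 per nucleus) and the male library 27529730 over 4923 nuclei (median 2658). Female nuclei held 13424 UMIs of Xist and male nuclei 7, and for Ddx3y these were 12 and 1789. The libraries shared 8 of 8714 barcodes. Nuclei were clustered without the 73 guidance genes, and 19 of 20 clusters took a name from marker lists. Neuron-like nuclei numbered 676 in females and 1605 in males, satellite glia-like nuclei 564 and 823, Schwann cell-like nuclei 544 and 699, fibroblast-like nuclei 745 and 986, barrier fibroblast-like nuclei (with markers of the fibroblast layers that seal nerve and meninges) 207 and 315, endothelial cell-like nuclei 217 and 192, macrophage-like nuclei 136 and 136, adipocyte-like nuclei 107 and 42, and cerebellar granule cell-like nuclei 383 and 23. The last are not cells of a vagal ganglion. The neuron marker list (10 genes, all with UMIs in every class) summed to 58.0 (female) and 65.5 (male) UMIs per 10000 in neuron-like nuclei. In the other named classes, granule cell-like aside, it summed to 15.4 to 24.5 in females and 28.3 to 41.9 in males. In the unnamed cluster it summed to 38.1 and 60.9. UMIs of neuron genes were thus counted in every class, at higher levels in the male library.

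Promoters of 4 members are shown because the results turn on these genes. Slit2, Slit3 and Plxnc1 gave the widest gaps in level between nodose-like and jugular-like neurons among the Slits and plexins. Robo4 was the only Robo counted that endothelial cell-like nuclei led. Each window runs from 250 bases before to 50 bases after the start of the gene in RefSeq (GRCm38.p6), written 5′ to 3′ on the strand of the gene. Capitals mark matches to 3 motifs, each searched on both strands. The first was the TATA box, searched as TATAAA. The second was a site of ETS factors, which are central to endothelial genes, searched as CAGGAAG. The third was the core that homeodomain factors bind, which reads the same on both strands and was searched as TAATTA. The 3 motifs do not contain one another.
Slit2 chr5:47982905-47983204 (+): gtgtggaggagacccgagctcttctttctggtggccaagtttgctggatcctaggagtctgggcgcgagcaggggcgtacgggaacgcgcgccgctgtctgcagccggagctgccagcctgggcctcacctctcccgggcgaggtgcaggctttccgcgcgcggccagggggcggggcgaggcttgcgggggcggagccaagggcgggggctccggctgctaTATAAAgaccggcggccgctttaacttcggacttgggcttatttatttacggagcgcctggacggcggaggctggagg
Slit3 chr11:35121206-35121505 (+): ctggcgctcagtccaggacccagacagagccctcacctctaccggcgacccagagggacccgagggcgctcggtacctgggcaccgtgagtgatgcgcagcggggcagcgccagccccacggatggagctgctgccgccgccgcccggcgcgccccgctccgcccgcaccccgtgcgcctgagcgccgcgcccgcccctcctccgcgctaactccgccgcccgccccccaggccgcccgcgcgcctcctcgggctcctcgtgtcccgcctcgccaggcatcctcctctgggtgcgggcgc
Plxnc1 chr10:94944796-94945095 (-): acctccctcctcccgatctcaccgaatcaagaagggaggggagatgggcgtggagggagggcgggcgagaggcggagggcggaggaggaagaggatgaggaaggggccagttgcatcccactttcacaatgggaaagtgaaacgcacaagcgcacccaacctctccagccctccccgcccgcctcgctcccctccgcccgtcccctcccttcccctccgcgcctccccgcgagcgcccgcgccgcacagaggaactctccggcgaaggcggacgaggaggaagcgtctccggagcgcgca
Robo4 chr9:37401722-37402021 (+): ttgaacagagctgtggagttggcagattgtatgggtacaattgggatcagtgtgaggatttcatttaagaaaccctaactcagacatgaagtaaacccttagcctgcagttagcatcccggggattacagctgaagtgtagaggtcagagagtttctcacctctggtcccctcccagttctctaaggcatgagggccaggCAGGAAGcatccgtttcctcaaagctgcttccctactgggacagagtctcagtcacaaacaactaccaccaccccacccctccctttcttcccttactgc

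The Slit2 window held 1 TATAAA, which 13.6% of 32851 promoters of the same length hold. The Robo4 window held 1 CAGGAAG, found in 13.3% of promoters. None of the 3 motifs was present in the Slit3 and Plxnc1 windows, which says only that these letters are not in these 300 bases. Base composition set the 4 windows apart: Slit3 had 41 CpG dinucleotides (96.5% of promoters had fewer), Slit2 and Plxnc1 had 30 each (88.3% had fewer) and Robo4 had 2 (14.1% had fewer), with a median of 7 over all promoters. GC content was 78.3% for Slit3, 69% for Plxnc1, 68% for Slit2 and 50.3% for Robo4. Of the 60 members with a window, CAGGAAG was present in 9 (Efna4, Efnb1, Epha1, Plxna3, Robo4, Sema3e, Sema4b, Sema4d and Sema6b), TAATTA in 3 (Efna1, Epha5 and Robo3; 5.29% of all promoters) and TATAAA in 2 (Efnb2 and Slit2).

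Which cells held which guidance gene was asked first. Levels are UMIs of a gene per 10000 UMIs of the class. They were summed within a library and are given for the female and then the male library. Gene positions are those of the GENCODE annotation of GRCm38. All 73 members had UMIs, from 17 to 28189 over both libraries, and 65 had at least 100 in the named nuclei. Of these 65, 50 had the same class on top in both libraries, a share that was not counted over all genes. For 19 of the 65 (29.2%) that class stood at least 2-fold above the second class in each library. Only named classes were ranked, and the unnamed cluster (1505198 and 360283 UMIs over all genes) was left out of every such rank. Over all genes with as many UMIs, 11.5% of 15182 were led by 1 class in this way. Leaving out the cerebellar granule cell-like class, an alternative chosen after seeing the data because it held 23 male nuclei, gave 21 such members.

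Schwann cell-like nuclei led 4 semaphorins. Sema5a, a transmembrane semaphorin with thrombospondin repeats, was at 8.89 [8.37 to 9.42] and 6.64 [6.27 to 7.02], 3.13-fold and 3.11-fold above the neuron-like nuclei that came second. Sema3b, a secreted semaphorin, was at 1.86 and 1.66, or 3.55-fold and 2.79-fold above satellite glia-like nuclei. The transmembrane semaphorins Sema4c and Sema6c were highest there as well. Sema4c was at 1.12 and 0.839 (5.02-fold and 2.45-fold above the second class) and Sema6c at 1.25 and 0.944 (5.26-fold and 6.83-fold). Satellite glia-like nuclei, the glia that wrap the neuron bodies, led 1 member, the secreted Sema3e, at 1.75 [1.56 to 1.97] and 1.26 [1.13 to 1.40].

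Barrier fibroblast-like nuclei led a receptor of each of 2 systems. Robo1, a Slit receptor (chr16:72308306-73046095), was at 18.4 [17.4 to 19.4] and 14.5 [13.7 to 15.3] there, against 2.82 and 4.23 in neuron-like nuclei and 3.09 and 2.77 in other fibroblast-like nuclei. Plxna2, a receptor of class 6 semaphorins, was at 11.5 [10.7 to 12.3] and 9.05 [8.45 to 9.68]. Each was at least 2.75-fold above the second class in both libraries. The other fibroblast-like nuclei led Ntng1, a membrane-anchored relative of the netrins, at 7.88 [7.48 to 8.31] and 6.65 [6.33 to 6.99], 2.14-fold and 2.12-fold above the second class.

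Endothelial cell-like nuclei led 5 members. Robo4, known as the endothelial Robo (chr9:37401897-37415115), had 24 and 42 UMIs there and was at 0.408 [0.262 to 0.608] and 0.685 [0.494 to 0.926]. It was the only Robo led by this class among the 3 that were counted. Robo2, which neuron-like nuclei led, nevertheless stood above it within this class, at 0.510 and 1.03. Sema6a, a transmembrane semaphorin, was at 5.85 [5.25 to 6.51] and 3.69 [3.22 to 4.20]. Sema7a, which is held to the membrane by a lipid anchor, was at 0.885 and 1.21 (5.30-fold and 9.11-fold above Schwann cell-like nuclei). The secreted Sema3f was at 0.255 and 0.294, from 15 and 18 UMIs, and Efna1, an ephrin of vessels, at 0.238 and 0.408, from 14 and 25 UMIs. Macrophage-like nuclei led Sema4a, a semaphorin known from immune cells, at 0.513 and 0.725 from 14 and 21 UMIs. The marker list of mural cells, which sit on vessels, summed to 3.44 and 9.28 in the endothelial cell-like class, with all 8 genes present in each library, and its part in these levels was not tested.

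Among the named classes, neuron-like nuclei led 3 receptors. Robo2, the other main Slit receptor (chr16:73891839-74411825), was at 8.70 [8.50 to 8.91] and 7.59 [7.47 to 7.72], 4.39-fold and 3.37-fold above barrier fibroblast-like nuclei. Unc5d, a netrin receptor that also binds FLRT proteins (chr8:28646717-29219636), was at 2.60 [2.49 to 2.71] and 2.28 [2.21 to 2.35], 10.0-fold and 5.79-fold above satellite glia-like nuclei. Epha5, a receptor of A ephrins (chr5:84054761-84417382), was at 3.15 [3.03 to 3.28] and 3.97 [3.88 to 4.06]. The second class for Epha5 was satellite glia-like as well, at 1.37 and 1.94. The unnamed cluster held these receptors too. Of 3269 female UMIs of Epha5, 2540 were in neuron-like and 454 in other named nuclei, and the rest were in that cluster. For Robo2 these numbers were 8240, 7004 and 692. Whether the 3 receptors stood 2-fold above that cluster is not given here. Cerebellar granule cell-like nuclei led Ephb1, a receptor of B ephrins, at 3.62 and 2.89, and the netrin receptor Unc5a at 0.123 and 0.206. The male levels there rest on 14 UMIs of Ephb1 and 1 of Unc5a, whose interval was [0.00522 to 1.15].

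**Figure D1:**
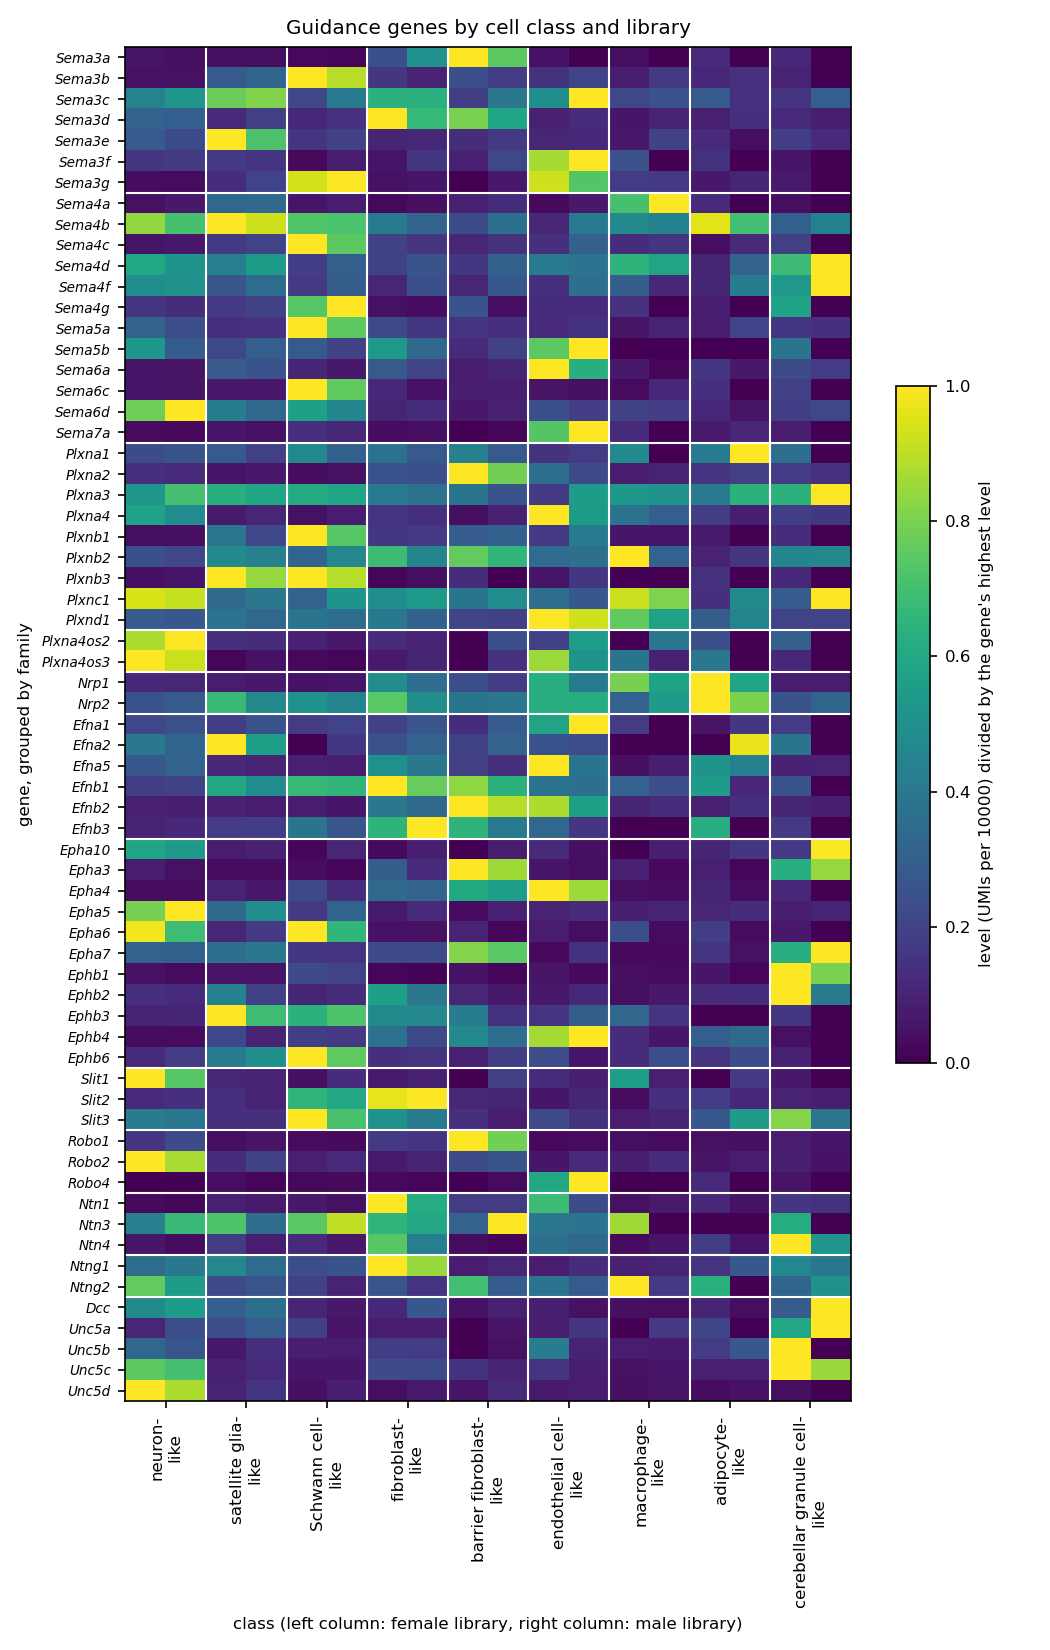
Level of each guidance gene with at least 100 UMIs in the named nuclei (rows, grouped by family) in 9 classes of nuclei (columns, female library left and male library right), in UMIs per 10000 divided by the highest level of that gene. Bright cells in both columns of a class mark the genes it led, such as Robo1 in barrier fibroblast-like, Sema5a in Schwann cell-like and Robo2 in neuron-like nuclei.

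The member of most UMIs in the remaining families was spread over several classes. Efna5, an A ephrin, was highest in endothelial cell-like nuclei of the female library (18.5) and in adipocyte-like nuclei of the male library (8.03), and was at 9.25 and 7.44 in fibroblast-like and 5.05 and 5.83 in neuron-like nuclei. Slit2 (chr5:47983138-48307733) was at 7.24 and 7.49 in fibroblast-like and 4.90 and 4.52 in Schwann cell-like nuclei. Nrp2, a coreceptor of secreted semaphorins, was highest in adipocyte-like nuclei, at 3.85 and 3.09. The secreted Sema3d was highest in the fibroblast-like classes: it was at 2.42 and 1.62 in fibroblast-like and 1.93 and 1.43 in barrier fibroblast-like nuclei. Ntn1, the founding netrin, was at 4.20 and 2.60 in fibroblast-like nuclei.

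The 8 members below 100 UMIs in the named nuclei entered no count. Over both libraries, Efna4 had 17 UMIs, Robo3 18, Efna3 19, Epha8 42, Epha1 49, Plxna4os1 56, Epha2 74 and Sema6b 79. Epha2 was lower in neuron-like nuclei, with 3 and 4 UMIs against 28 and 37 in the other named nuclei (log2 -3.25 [-5.62 to -1.56] and -4.27 [-6.22 to -2.79]). Some members overlap another gene: Epha1 with Zyx, Ephb1 with 9630041A04Rik, Ephb4 with Zan, Ntn3 with Tbc1d24 and Unc5a with Hk3, besides Plxna4 with its 3 antisense transcripts. The sources used here do not say how reads of such pairs were divided, and the values of these members are uncertain.

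Next, neuron-like nuclei were compared with all other named nuclei. Neurons held 3 netrin receptors, Robo2, 3 EphA receptors, Slit1, Sema6d and Plxna4 at higher levels. The other nuclei held Ntn1, Ntn4, Slit2, the B plexins, the B ephrins and 6 other Eph receptors at higher levels. At least 2-fold higher in neuron-like nuclei in both libraries were 13 of the 65 members (9.71% of all genes were higher in this way), and at least 2-fold lower were 24 (15.1% of all genes). The median log2 ratio of the 65 members was -0.45 in females and -0.22 in males, against -0.26 and -0.23 over all 15182 genes. TMM scaling moved every ratio by 0.35 and 0.24 (log2) towards the neurons and gave 14 members higher and 22 lower. Leaving out the granule cell-like class gave 14 higher and 21 lower.

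Among the 5 netrin receptors, 3 were higher in neurons and none lower. Unc5d was at 2.60 and 2.28 in neuron-like and 0.141 and 0.267 in the other nuclei, a log2 ratio of 4.20 [3.93 to 4.49] and 3.09 [2.91 to 3.29]. Unc5c, the member of most UMIs in the whole set (chr3:141465216-141834924), was at 9.05 and 8.55 against 3.12 and 1.60 (1.54 [1.47 to 1.60] and 2.42 [2.34 to 2.50]). Dcc, the attractive netrin receptor, was at 0.884 and 1.02 against 0.305 and 0.395 (1.54 and 1.37). Granule cell-like nuclei stood above the neurons for Unc5c, at 12.1 and 10.3, and the remaining named classes were at 0.550 to 2.83. Of 10934 female UMIs of Unc5c, 7285 were in neuron-like and 2456 in other named nuclei, and the rest were in the unnamed cluster. For Dcc, granule cell-like nuclei stood above the neurons in the male library only, at 1.86 from 9 UMIs (0.536 in the female library). The ligand of these receptors was lower in neurons. Ntn1 was at 0.107 and 0.0637 in neuron-like and 1.49 and 0.984 in other nuclei, a log2 ratio of -3.81 [-4.14 to -3.49] and -3.95 [-4.24 to -3.67], and Ntn4, a netrin of basement membranes, was lower by a ratio of -2.75 and -2.54. Of the netrin-G genes, Ntng2 was higher in neurons (1.10 and 1.49), although macrophage-like nuclei of the female library stood above them, at 0.403 against 0.306.

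The Slits and Robos divided in both families. Slit1 (chr19:41600257-41743665) was at 0.396 and 0.292 in neuron-like and 0.0330 and 0.0432 in other nuclei (log2 3.59 [3.01 to 4.22] and 2.76 [2.28 to 3.27]). Slit2 went the other way, at 0.924 and 1.03 against 2.94 and 3.32 (-1.67 [-1.79 to -1.55] and -1.70 [-1.78 to -1.61]). Slit3 was not past 2-fold either way. Robo2 was at 8.70 and 7.59 against 0.878 and 1.31 (3.31 [3.20 to 3.42] and 2.54 [2.45 to 2.62]), and Robo1, whose barrier fibroblast-like level was the highest, stood at -0.08 and 0.62. Robo4 had 1 and 9 UMIs in neuron-like nuclei and a log2 ratio of -5.39 [-10.73 to -2.83] and -3.59 [-4.80 to -2.56].

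Of the 11 Eph receptors counted, 3 were higher in neurons and 6 lower. The higher ones were all EphA receptors: Epha5 (2.45 [2.31 to 2.60] and 1.91 [1.81 to 2.01]), Epha6 (2.05 and 1.77) and Epha10, which lacks kinase activity (3.18 [2.53 to 3.91] and 2.52 [2.02 to 3.07]). The lower ones were Epha3 (-1.80 and -1.69), Epha4 (-3.12 and -2.95), Ephb1 (-2.11 and -1.30), Ephb3 (-2.40 and -2.29), Ephb4, the venous receptor of ephrin B2 (-3.09 and -3.01), and Ephb6 (-1.43 and -1.11). The call of Ephb1 rests on the granule cell-like class, which held 412 of its 599 female UMIs outside neurons, and without that class the mean of both libraries was -0.93, short of 2-fold. Epha6 was as high in Schwann cell-like nuclei as in neurons, at 2.28 and 1.5 against 2.24 and 1.57. Epha10 was 1.86-fold higher in granule cell-like nuclei than in neurons in the male library, and 3.44-fold lower in the female library. The male value rests on very few UMIs, since that class held 48504 UMIs over all genes there. All 3 B ephrins were lower in neurons as well. Their log2 ratios were -1.83 and -1.60 for Efnb1, -1.79 and -1.69 for Efnb2 and -2.03 and -1.89 for Efnb3. The 3 A ephrins counted, Efna1, Efna2 and Efna5, were not past 2-fold in both libraries.

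Sema6d, the member of most UMIs among the membrane-bound semaphorins, was at 5.94 and 7.62 in neuron-like and 2.02 and 1.97 in other nuclei (1.55 [1.47 to 1.64] and 1.95 [1.88 to 2.03]), and was the only one of 19 semaphorins counted to be higher in neurons. Plxna4, a receptor of class 3 and class 6 semaphorins, was at 4.43 and 3.71 against 1.42 and 1.12 (1.64 [1.54 to 1.74] and 1.73 [1.64 to 1.83]), and endothelial cell-like nuclei held it at 7.71 and 4.19. The antisense transcripts Plxna4os2 (2.60 and 2.68) and Plxna4os3 (2.83 and 3.22) were higher beside it, and reads of the pair may have been shared. Lower in neurons were 3 secreted semaphorins, Sema3a (-1.82 and -2.43), Sema3b (-2.78 and -2.93) and Sema3g (-3.02 and -3.64), and 5 membrane-bound ones, Sema4a (-1.54 and -1.40), Sema4c (-2.41 and -2.17), Sema6a (-2.12 and -1.92), Sema6c (-2.10 and -1.97) and Sema7a (-2.06 and -2.23). The B plexins were all lower: Plxnb1 at -3.27 [-4.09 to -2.55] and -2.94 [-3.44 to -2.46], Plxnb2 at -1.06 and -1.10 and Plxnb3 at -3.32 and -2.99.

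Nodose-like and jugular-like neurons were then compared. Clusters 3 and 10 (243 and 765 nuclei) were named nodose-like and cluster 14 (120 and 228 nuclei) jugular-like, while clusters 2 and 15 took neither name. Of 6 nodose markers, all 6 were past 1.5-fold in cluster 10 (mean log2 fold 1.21) and 3 in cluster 3 (0.32). Cluster 2 had 4 (0.51) and was left without a name because its mean jugular log2 fold was positive (0.42, against -0.12 in cluster 3). The name of cluster 3 rests on weak marker folds. At 1.5 times the clustering resolution, a neuron-like cluster of similar depth (median 15060 UMIs, against 15549) took neither name. It had 1 nodose marker past 1.5-fold (mean 0.07). Clusters 11 and 24 of that clustering were nodose-like, with 5 markers each. How far their nuclei overlap cluster 3 was not counted. P2rx2, an ATP-gated channel subunit, was at 0.714 and 0.792 in nodose-like and 0.0361 and 0.0646 in jugular-like nuclei, and Prdm12, a factor of neural crest-derived nociceptors, at 0.264 and 0.315 against 1.19 and 1.49. Slit2, Slit3, 3 Unc5 receptors, Epha5 and Robo1 were higher in nodose-like nuclei, and Plxnc1 and Slit1 were higher in jugular-like nuclei. At least 2-fold higher in nodose-like nuclei in both libraries were 15 of 51 members with at least 100 UMIs in the nuclei compared (7.28% of 12839 genes), and 4 were lower (3.49%). With genes centred within each library before clustering, 10 were higher and 5 lower. The median log2 ratio of the 51 members was 0.55 and 0.64, against 0.16 and 0.18 over all genes.

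All 3 Slits passed 2-fold, and not in the same direction. Slit3 (chr11:35121224-35708507) was at 2.09 and 1.79 in nodose-like and 0.289 and 0.0676 in jugular-like nuclei, a log2 ratio of 2.86 [2.47 to 3.27] and 4.73 [4.14 to 5.39]. Slit2 was at 1.21 and 1.32 against 0.186 and 0.144 (2.70 [2.21 to 3.23] and 3.20 [2.79 to 3.64]). Slit1 was at 0.224 and 0.169 against 0.80 and 0.764 (-1.84 [-2.20 to -1.48] and -2.17 [-2.44 to -1.90]). Both libraries gave the same order. The windows of Slit2 and Slit3 shown above had no motif of the 3 in common. Of their receptors, Robo1 was at 3.54 and 5.08 against 1.40 and 1.64 (1.33 [1.15 to 1.52] and 1.63 [1.51 to 1.76]). Robo2 was at 8.05 and 6.37 against 10.9 and 12.8, a ratio of -0.44 [-0.52 to -0.36] and -1.01 [-1.06 to -0.95] that passed 2-fold in the male library only.

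Netrin receptors were higher in nodose-like nuclei for 3 of the 4 counted. Unc5d was at 3.48 and 2.79 against 0.222 and 0.444 (3.97 [3.53 to 4.44] and 2.65 [2.42 to 2.90]). Unc5c was at 11.9 and 10.6 against 2.71 and 1.77 (2.14 [2.01 to 2.27] and 2.58 [2.46 to 2.70]). Unc5b, which is better known from vessels, was at 0.202 and 0.152 against 0.0361 and 0.0352, the last 2 from 7 and 12 UMIs (2.48 and 2.11). Dcc was at 1.09 and 1.23 against 0.573 and 0.291, a ratio of 0.93 [0.63 to 1.24] and 2.08 [1.78 to 2.39]. Its female value missed 2-fold, and the nodose-like clusters differed: Dcc was at 1.36 [1.25 to 1.48] and 1.66 [1.57 to 1.76] in cluster 3 and at 0.227 [0.150 to 0.331] and 0.610 [0.544 to 0.682] in cluster 10, so that cluster 10 of the female library lay below the jugular-like level. Ntng1 was at 3.61 and 3.83 against 0.873 and 0.714 (2.05 and 2.42).

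Of 9 Eph receptors counted, 4 were higher in nodose-like nuclei and none was lower. Epha5 was at 4.31 and 4.98 against 0.816 and 0.731 (2.40 [2.17 to 2.65] and 2.77 [2.59 to 2.96]), and Epha10 at 0.334 and 0.285 against 0.0361 and 0.0235, the last 2 from 7 and 8 UMIs (3.21 and 3.60). Ephb1 (1.70 and 1.52) and Ephb2 (1.01 and 1.30) were the B receptors among them. Among the ephrins, Efna1 was lower, at 0.0560 and 0.0811 against 0.155 and 0.167 (-1.47 [-2.27 to -0.68] and -1.05 [-1.53 to -0.55]).

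Plxnc1, the receptor of Sema7a (chr10:94790866-94944835), gave the largest gap in favour of jugular-like nuclei among the members counted. It was at 0.344 and 0.480 in nodose-like and 3.42 and 3.62 in jugular-like nuclei, a log2 ratio of -3.31 [-3.56 to -3.07] and -2.91 [-3.06 to -2.77]. Plxnd1, the receptor of Sema3e, was lower too, at 0.180 and 0.225 against 0.527 and 0.473 (-1.55 and -1.07). Plxna3 went the other way (1.78 and 1.04), from 8 and 27 UMIs in jugular-like nuclei, and thinning each nucleus to 1000 UMIs reversed it (-0.14 as the mean of both libraries). Of the semaphorins, the secreted Sema3c was at 0.794 and 0.878 against 0.165 and 0.256 (2.26 and 1.78). The membrane-bound Sema5a (1.19 and 1.33) and Sema6a (1.37 and 1.43) were higher in nodose-like nuclei as well.

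**Figure D2:**
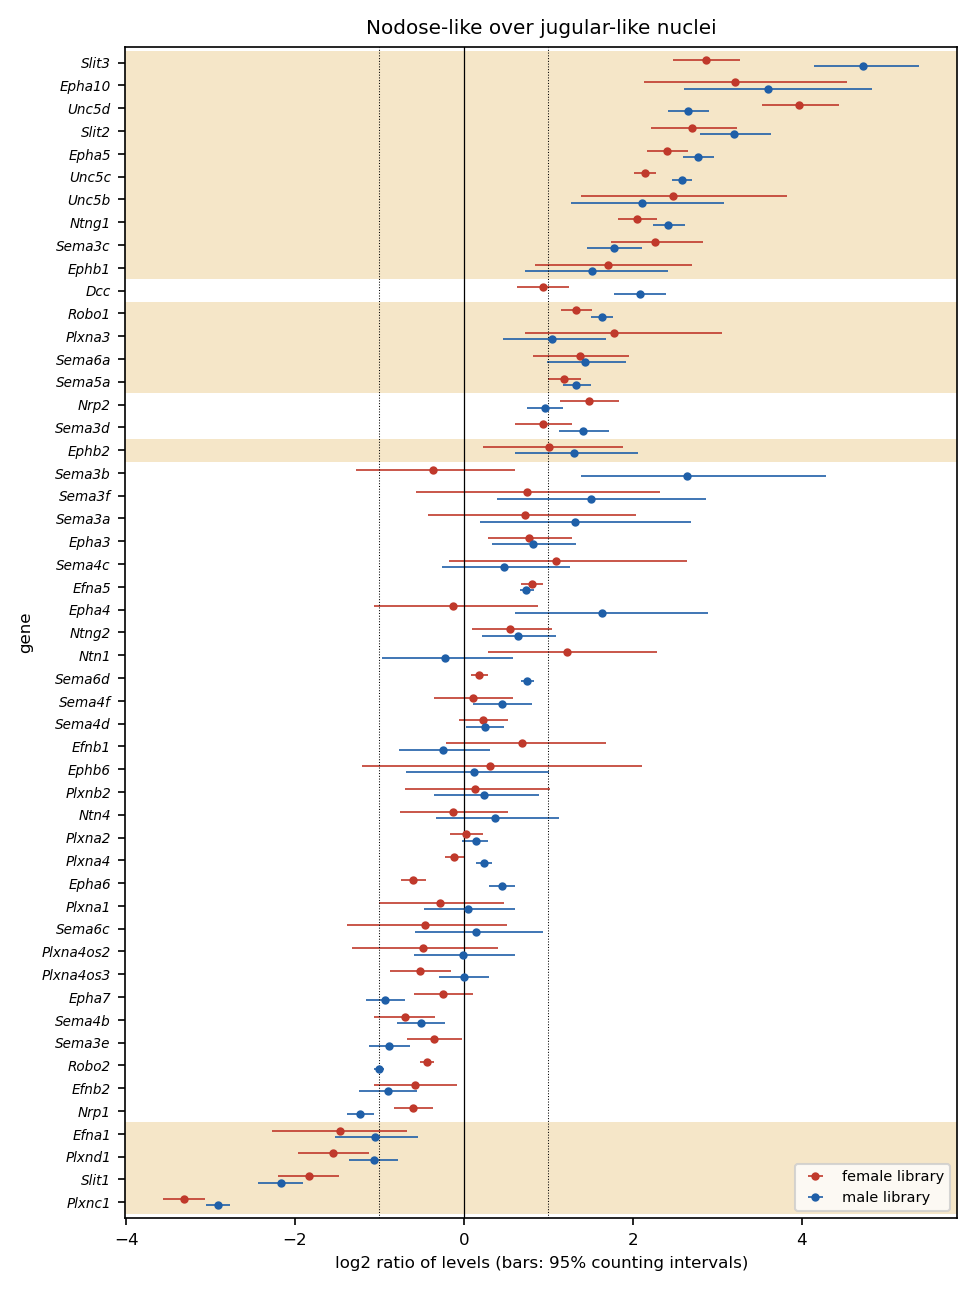
Log2 ratio of the level in nodose-like over that in jugular-like nuclei for the 51 guidance genes counted, in the female (red) and the male (blue) library, with 95% counting intervals and dotted lines at 2-fold. The 15 shaded genes on the right and the 4 on the left (Efna1, Plxnd1, Slit1 and Plxnc1) were past 2-fold in both libraries.

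The sympathetic neuron list moved with this comparison. Its 7 genes summed to 1.61 and 5.41 in nodose-like nuclei, all with UMIs, and to 0.196 and 1.01 in jugular-like nuclei, with Hand2 at 0 in the female library. In the named classes outside the neurons it summed to 0.482 to 0.806 in females and 2.96 to 5.36 in males. The male nodose-like sum was thus near that of most other classes, and the jugular-like sum was below them all. The mean log2 fold of the list was 1.07 in cluster 10, 0.03 in cluster 3 and -1.33 in cluster 14. The nodose-like clusters were therefore taken 1 at a time, an alternative chosen after seeing the data, with the mean of both libraries given. With cluster 3 alone the log2 ratio was 3.99 for Slit3, 3.05 for Slit2, 3.30 for Unc5d, 2.59 for Epha5, -1.71 for Slit1 and -3.30 for Plxnc1, and 16 members were higher and 3 lower. With cluster 10 alone it was 3.37, 2.81, 3.36, 2.64, -3.79 and -2.89 in the same order, and 12 were higher and 7 lower. The direction of these 6 genes was thus the same in each cluster. When only nuclei with over 2000 UMIs were clustered, the ratio was smaller but in the same direction for Slit2 (1.43, against 2.95 in the clustering used here), Slit3 (2.29 against 3.79) and Epha5 (1.45 against 2.59), and it was -2.65 for Plxnc1 (-3.11) and -3.26 for Slit1. The groups differed as well, since clusters 15, 16 and 17 of that clustering took the jugular-like name, where cluster 14 alone did here. Of the 19 members called, 11 kept a mean ratio past 2-fold under every alternative and 8 fell short under at least 1. At their weakest, these were Efna1 (-0.87), Ephb1 (0.84), Ephb2 (0.41), Ntng1 (0.98), Plxna3 (-0.14), Sema5a (0.61), Sema6a (0.78) and Unc5b (0.72). Epha10 went from 3.40 to 1.08 when each nucleus was thinned to 1000 UMIs. Among the 13 alternatives, the changes of the minimum and leaving out either library could not take a called member below 2-fold. They were therefore no check of these calls. The others were scored on the mean of both libraries, which asks less than 2-fold in each library.

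Levels were then read across the 5 neuron-like clusters. Slit3, Unc5d and Plxnc1 had already been called between cluster 14 and clusters 3 and 10, so their gap to those clusters follows from that choice. Only clusters 2 and 15 were new to the comparison. Slit3 was at 0.289 [0.218 to 0.375] and 0.0676 [0.0428 to 0.101] in the jugular-like cluster 14 and from 1.09 to 2.29 in the other 4 clusters. Unc5d was at 0.222 and 0.444 in cluster 14 and from 2.02 to 3.73 elsewhere. Plxnc1 was at 3.42 [3.16 to 3.69] and 3.62 [3.42 to 3.82] in cluster 14 and from 0.341 to 1.18 elsewhere. For each of these 3 genes the interval of cluster 14 did not overlap those of the other 4 clusters in either library. The share of all genes for which this holds was not counted. The 2 nodose-like clusters differed from each other in Robo2, at 9.23 and 7.76 in cluster 3 and 4.26 and 4.40 in cluster 10, and in Slit1, at 0.286 and 0.20 in cluster 3 and 0.0253 [0.00521 to 0.0739] and 0.127 [0.0981 to 0.162] in cluster 10, where 3 and 65 UMIs were counted. Clusters 2 and 15, with neither name, lay between the nodose-like and the jugular-like clusters for Epha5 and Plxnc1.

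**Figure D3:**
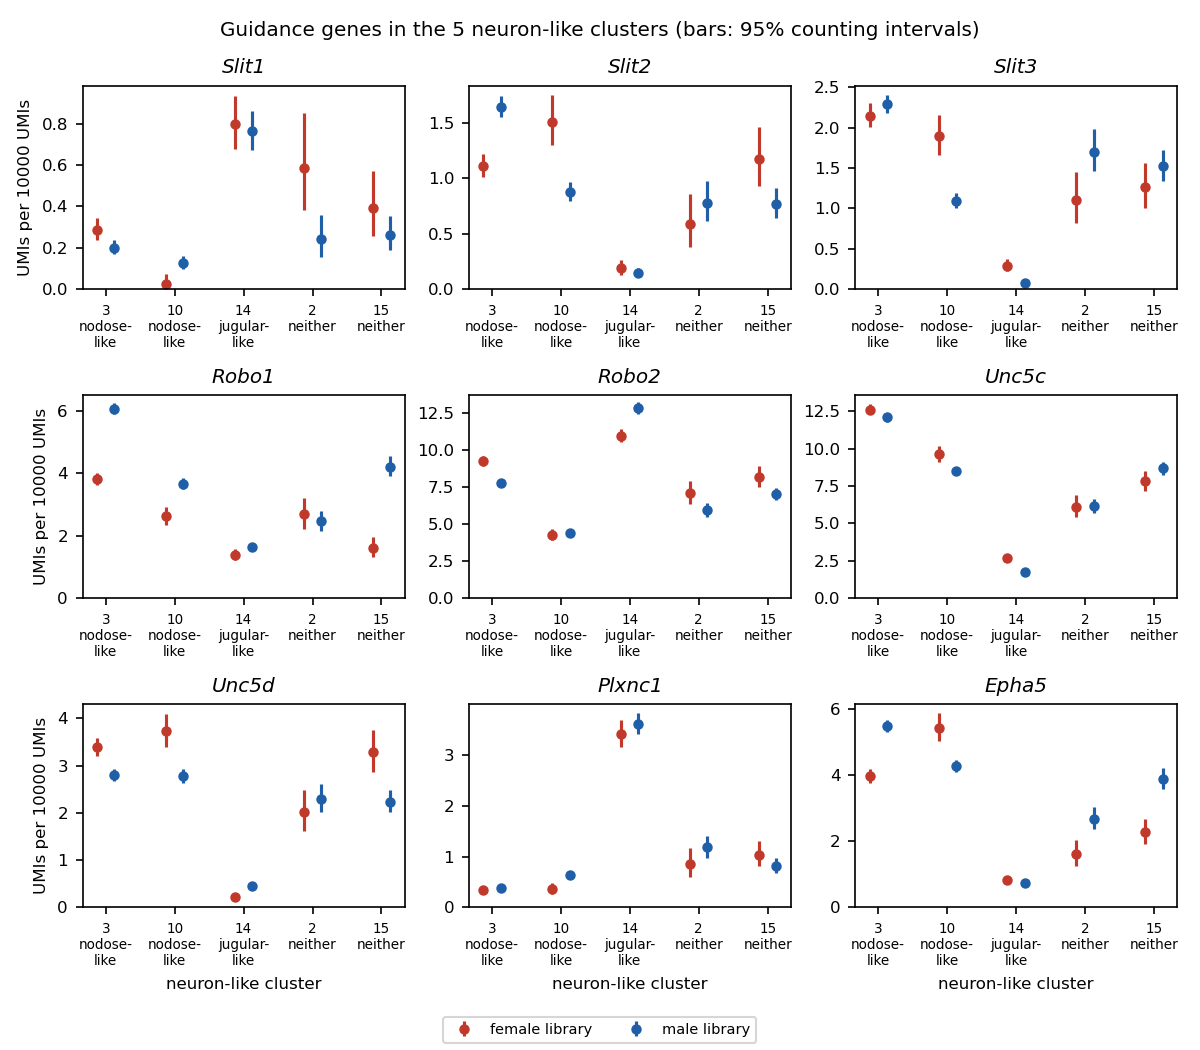
Level of 9 guidance genes, in UMIs per 10000, in the 5 neuron-like clusters of the female (red) and the male (blue) library, with 95% counting intervals. Cluster 14, the jugular-like one, was lowest for Slit2, Slit3, Robo1, Unc5c, Unc5d and Epha5 and highest for Slit1, Robo2 and Plxnc1 in both libraries, although female intervals overlapped those of cluster 15 for Robo1 and of cluster 2 for Slit1.

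Ligands and receptors known to bind each other were set side by side by the log2 ratio of neuron-like over other named nuclei. Ntn1 and Slit2 lay on the opposite side from their receptors: Ntn1 was at -3.81 and -3.95 and its receptors Dcc at 1.54 and 1.37 and Unc5c at 1.54 and 2.42, with Unc5b at 0.37 and 1.14, and Slit2 was at -1.67 and -1.70 and Robo2 at 3.31 and 2.54. Slit1 (3.59 and 2.76) lay on the same side as Robo2, and Slit3 (-0.17 and 0.25) and Robo1 (-0.08 and 0.62) were near even. Efna5 was near even (-0.08 and 0.62), and of its receptors Epha5 was higher in neurons, Epha3 and Epha4 were lower and Epha7 was even (-0.07 and 0.03). Sema6a (-2.12 and -1.92) stood against Plxna4 (1.64 and 1.73), while its other receptor Plxna2 was at -0.80 and -0.76. Ephb1, a further receptor of Efnb2, was at -2.11 and -1.30, and its mean fell short of 2-fold without the granule cell-like class, as given above. Sema7a (-2.06 and -2.23) stood against Plxnc1 (1.32 and 0.93). Pairs on the same side were Sema3a (-1.82 and -2.43) with Nrp1 (-1.41 and -0.93), Efnb2 (-1.79 and -1.69) with Ephb4 (-3.09 and -3.01), and, with smaller ratios, Sema3e (-0.13 and -0.51) with Plxnd1 (-0.49 and -0.44).

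Sema3f (0.05 and -0.21) and Nrp2 (-1.21 and -0.76) differed, as did Sema4d (0.82 and 0.43) and Plxnb1 (-3.27 and -2.94). The netrin-G genes bind proteins of the LRRC4 family. Ntng1 (-0.36 and -0.06) stood beside Lrrc4c (-1.51 and -1.42), and Ntng2 (1.10 and 1.49) beside Lrrc4 (-0.61 and 0.02). Between the neurons, Sema7a had too few UMIs to be counted, and its receptor Plxnc1 was the jugular-like gene, while Sema3e (-0.35 and -0.89) and its receptor Plxnd1 (-1.55 and -1.07) both leaned to jugular-like nuclei. Efna5 (0.81 and 0.74) and Epha5 (2.40 and 2.77) both leaned to nodose-like nuclei.

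The study compared the sexes, and the members were compared between the libraries within each class. A member was counted where the class held 20 or more of its UMIs, and was called where it differed at least 2-fold and its interval lay beyond 0. Over 372 pairs of a member and a class, 17 were higher (4.57%) and 10 lower (2.69%) in the male library. Over all genes, 4.60% and 2.39% of 94996 pairs were called, so that the share of the members was close to that of all genes. Under TMM scaling, 12 were higher and 14 lower. The share of all genes under that scaling is not given here, so the closeness to all genes was seen for unscaled levels only. In neuron-like nuclei, 1 of 66 members was called, Unc5a, higher in the male library, where 1.74% of all genes were higher and 1.16% lower. It had 18 and 89 UMIs (0.0224 and 0.0485, log2 1.12 [0.37 to 1.93]), and the sign changed when each nucleus was thinned to 1000 UMIs.

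Satellite glia-like nuclei gave 3 members of 56, all lower in the male library (2.03% of all genes were lower and 2.78% higher): Ephb2 (0.445 and 0.191, -1.22 [-1.77 to -0.68]), Ephb4 (0.123 and 0.0574, -1.11 [-2.18 to -0.07]) and Ntn4 (0.407 and 0.191, -1.09 [-1.65 to -0.54]). In Schwann cell-like nuclei Unc5d was higher, the only one of 50 (0.103 and 0.221, 1.09 [0.16 to 2.12], 3.44% of all genes). The satellite glia-like clusters were unevenly filled, with 274 female and 47 male nuclei in cluster 16 and 34 and 454 in cluster 9. In the Schwann cell-like class cluster 5 held 17 and 529.

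Of 49 members in fibroblast-like nuclei, 3 were higher (5.05% of all genes) and 2 lower (2.90%). Epha3 was at 1.22 and 0.509 (-1.26 [-1.60 to -0.94]) and was lower in the male library in each of the 4 clusters, at 0.593 and 0.261 in cluster 6, 1.31 and 0.0789 in cluster 8, 2.08 and 0.699 in cluster 13 and 1.13 and 0.854 in cluster 18. These clusters were unevenly filled, with 42 and 502 nuclei in cluster 6, 455 and 44 in cluster 8, 25 and 358 in cluster 13 and 223 and 82 in cluster 18. Over all genes, 84265 UMIs were counted in cluster 6 of the female library, 126711 in cluster 8 of the male and 57636 in cluster 13 of the female library. The levels of Epha3 there rest on few UMIs, and the clusters are not replicates. Sema6c was lower as well (0.140 and 0.0599, -1.22 [-2.28 to -0.22]). Dcc (0.212 and 0.505, 1.25 [0.71 to 1.82]), Sema3a (0.251 and 0.522, 1.05 [0.55 to 1.58]) and Sema4f (0.0670 and 0.150, 1.16 [0.18 to 2.24]) were higher. By cluster, Dcc was at 0.119 and 0.157 in cluster 6, 0.0679 and 0.0789 in cluster 8 and 0.521 and 0.665 in cluster 13. The intervals of the libraries overlapped in each of these clusters. Only in cluster 18 did the male interval [0.862 to 1.62] lie above the female one [0.244 to 0.530]. The part of the uneven filling in the call of Dcc was not tested.

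Barrier fibroblast-like nuclei gave 4 of 39 members higher (6.78% of all genes) and 1 lower (2.25%). The higher ones were Epha5 (0.121 and 0.353, 1.55 [0.45 to 2.80]), Unc5d (0.134 and 0.321, 1.26 [0.19 to 2.46]), Plxna4 (0.308 and 0.705, 1.19 [0.49 to 1.95]) and Sema3c (0.255 and 0.545, 1.10 [0.31 to 1.94]), and Ntng2 was lower (0.281 and 0.118, -1.26 [-2.46 to -0.14]). Epha5, Unc5d and Plxna4 are also among the members higher in neurons. The neuron list summed to 15.9 and 30.9 in this class, to 19.7 and 36.2 in Schwann cell-like and to 17.1 and 34.9 in fibroblast-like nuclei, all 10 genes with UMIs, and its part in these differences was not tested.

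In endothelial cell-like nuclei, 2 of 38 members were higher (6.52% of all genes) and 2 lower (4.26%). Efna5 had 1085 and 436 UMIs and was at 18.5 and 7.11 (-1.38 [-1.54 to -1.21]), the call of most UMIs between the libraries. Ntn1 was at 2.88 and 0.979 (-1.55 [-2.0 to -1.12]), while Robo2 (0.510 and 1.03, 1.01 [0.36 to 1.69]) and Sema3c (0.681 and 1.37, 1.01 [0.45 to 1.59]) were higher. The endothelial list summed to 51.4 and 39.0 here, the mural list to 3.44 and 9.28, the neuron list to 19.3 and 35.2 and the sympathetic list to 0.528 and 4.16. Their part in these differences was not tested.

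The remaining classes rest on few nuclei. Of 17 members in macrophage-like nuclei, 2 were higher (7.84% of all genes): Slit2, with 6 and 29 UMIs (0.220 and 1.0, 2.19 [0.89 to 3.75]; the sign changed when only nuclei with over 2000 UMIs were clustered), and Efna5 (0.769 and 1.55, 1.01 [0.24 to 1.84]). Of 21 in adipocyte-like nuclei, 2 were higher (7.44%) and 2 lower (5.24%): Sema5a (0.727 and 1.78, 1.29 [0.51 to 2.06]) and Slit3 (1.0 and 2.04, 1.02 [0.32 to 1.71]), and Plxna4 (1.39 and 0.658, -1.08 [-2.20 to -0.11]) and Epha6, with 20 and 1 UMIs (-2.70 [-8.07 to -0.05]). In cerebellar granule cell-like nuclei 2 of 36 were higher (5.10%), Dcc with 61 and 9 UMIs (1.79 [0.60 to 2.81]) and Plxnc1 with 41 and 6 (1.78 [0.25 to 3.02]).

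**Figure D4:**
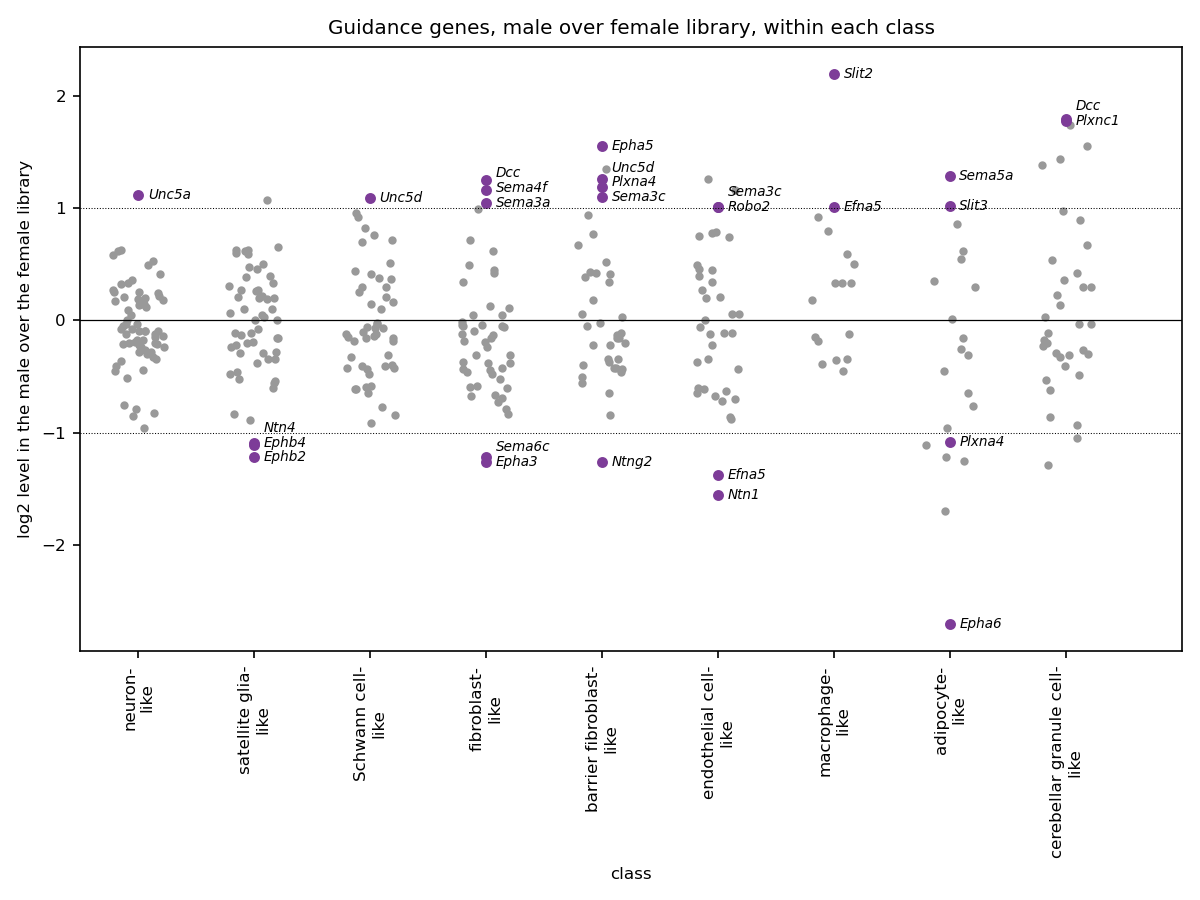
Log2 ratio of the level in the male over that in the female library for each guidance gene with at least 20 UMIs in a class, with dotted lines at 2-fold. A level of 0 was set at the floor of 3 UMIs. In the small male granule cell-like class this puts genes without male UMIs above 0, such as Epha4 (26 and 0 UMIs, plotted at 1.44) and Sema3b (21 and 0, at 1.74). These points do not show a higher male level. The 27 purple points with names were past 2-fold with an interval beyond 0, 17 above and 10 below, and the widest ratios, Slit2 in macrophage-like and Epha6 in adipocyte-like nuclei, rest on few UMIs.

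Beyond the ligands and receptors, 45 other genes of guidance signalling (coreceptors, cytoplasmic effectors and further ligands) were all present in the matrix. Of 41 with enough UMIs, 9 were at least 2-fold higher in neuron-like nuclei in both libraries and 7 lower, where 9.71% and 15.1% of all genes were. The higher ones included Dscam, a further netrin receptor (3.0 and 3.23), and 3 of the collapsin response mediator proteins that act downstream of semaphorins, Crmp1 (2.05 and 1.49), Dpysl3 (1.64 and 1.16) and Dpysl5 (1.97 and 1.72). Among the lower ones were Rgma, a ligand of neogenin (-2.53 and -2.92), and Mical2, an enzyme that oxidizes actin downstream of plexins (-1.96 and -1.92). Between the neurons, 3 of 40 were higher in nodose-like nuclei (7.28% of all genes): Lrrc4b (2.18 and 1.91), Nck2 (1.15 and 1.40) and Chn2 (1.67 and 1.49). None of the 40 was lower (3.49% of all genes).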

How the data were processed

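The authors aligned the reads with Cell Ranger 7.1.0 to mm10 with a transgene sequence added, introns included, removed debris and doublets with Cell Ranger and DIEM, and joined the libraries after normalizing for confidently mapped reads. The authors deposited whole UMI counts per gene and nucleus, and the sources used here do not state the annotation release. Nuclei were given a library by the number on their barcode, because 3791 and 4923 nuclei are the numbers the study states for females and males.

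Clusters were rebuilt after Cell Ranger's method: UMIs scaled to the median nucleus, log2(1 + value), centring and scaling of the 23524 genes found in 3 or more nuclei, Louvain clustering at resolution 3.2 on 243 neighbours in 10 principal components, with the 73 members and 6 sex-linked genes left out (scikit-learn 1.9.0, python-igraph 0.11.9). A cluster was named after its leading marker list where at least 3 of its markers with at least 10 UMIs reached 1.5-fold. In addition, at most 1 other list, neuron subtypes aside, could have a mean log2 fold above 0.8. No other list could hold more of the 10 top genes of the cluster. The unnamed cluster was led by the pituitary list, with 5 markers past 1.5-fold. It took no name because the granule cell and inhibitory neuron lists were also above 0.8. The rule that named the nodose-like and jugular-like clusters was set after the clusters had been seen, and no doublet caller was run. The values of 1 marker are not reported here.

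Counts were summed per class and library. Single levels carry exact Poisson intervals and ratios exact conditional binomial intervals (scipy 1.17.1, 95%). A gene at 0 was set at a floor of 3 UMIs. Calls needed 2-fold in both libraries and at least 100 UMIs over the nuclei compared, or, between the sexes, 20 UMIs in the class, 2-fold and an interval beyond 0. No test across libraries was run, each sex being 1 library. Named are members past these limits, the member of most UMIs in each family, fixed ligand and receptor pairs, and members singled out after their values were seen. Members, marker lists and pathway genes were chosen with earlier results of these data known. The ratios were tested on simulated data.

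Alternatives were clustering with the members kept, with genes centred within each library, at 1.5 times the resolution or on nuclei with over 2000 UMIs, means over nuclei, thinning to 1000 UMIs (19 female nuclei left out), a minimum of 1 UMI or of 2 times the limit, TMM scaling (edgeR 4.0.16), and each library left out.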

Additional observations from a re-analysis of the deposited data

Results flagged for a closer look

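Several members lay on opposite sides of 0 in the 2 libraries or in 2 classes. None of these differences was tested, since each library is 1 sample.

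Between neuron-like and other named nuclei, 5 members had log2 ratios of opposite sign in the libraries, given for females and then males: Efna5 (-0.08 and 0.62), Robo1 (-0.08 and 0.62), Sema5a (0.13 and -0.17), Slit3 (-0.17 and 0.25) and Unc5a (-0.91 and 0.66). Between nodose-like and jugular-like nuclei, the signs were opposite for Epha6 (-0.60 and 0.45) and Plxna4 (-0.12 and 0.24).

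Between the libraries, 2 members were called in opposite directions in 2 classes. Efna5 had a male over female log2 ratio of -1.38 in endothelial cell-like and 1.01 in macrophage-like nuclei. Plxna4 had 1.19 in barrier fibroblast-like and -1.08 in adipocyte-like nuclei.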

How the results depend on the processing

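Of 79 recomputed counts, 70 stayed within 1.5 times the reported one. Of 1137 values of named members, 913 were labelled the same, 221 moved and 3 reversed in sign. For means of both libraries this label did not follow counting error. Sema6a was labelled moved from 1.40 to 1.28 under TMM scaling, and Slit3 the same from 3.79 to 4.73 without the female library. Part of the tally was fixed in advance. The 2 changes of the minimum cannot alter a ratio (102 of 102 the same in each). Leaving out a library replaced a mean by 1 of its own 2 values (75 of 75 the same). The counts that moved were these. Thinning each nucleus to 1000 UMIs gave 15 members lower in neuron-like nuclei (reported 24), 9 higher (15) and 2 lower (4) in nodose-like nuclei, and 8 higher in the male library (17). Members lower in nodose-like nuclei numbered 7 at 1.5 times the Louvain resolution and 7 with cluster 10 alone (4). Members lower in the male library (10) numbered 16 on nuclei with over 2000 UMIs, where no adipocyte-like class was found, 16 at a minimum of 1 UMI and 6 at 2 times the minimum. The sign changed for Slit2 in macrophage-like nuclei, male over female (2.19, and -1.22 on nuclei with over 2000 UMIs), and, when thinned, for Plxna3 in nodose-like over jugular-like nuclei (1.41 as the mean of both libraries, and -0.14) and Unc5a in neuron-like nuclei, male over female (1.12, and -0.66). The cause was not tested. The nodose-like excess of Slit2 had a mean log2 ratio of 2.95, which was 1.43 on nuclei with over 2000 UMIs and 1.44 with genes centred within each library. In both of these clusterings more than 1 cluster took the jugular-like name.

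With either library left out, 26 to 27 members were led by 1 class, 14 to 15 were higher and 25 to 27 lower in neuron-like nuclei, and 18 to 21 were higher and 4 to 6 lower in nodose-like nuclei. No paired analysis was possible because each sex, the groups of the labels, is 1 library. Contrasts between classes were measured within each library, and no test over the 2 libraries was run. Depth limits the members under 100 UMIs and the classes of few nuclei.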

Other observations

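The unnamed cluster, 212 female and 102 male nuclei, held the highest levels of Dcc in the male library. Dcc was at 1.68 UMIs per 10000 in the female and 13.7 in the male nuclei of this cluster. The UMIs were unevenly spread: of 253 in the female nuclei 83 came from 1 nucleus and 156 from the top 10, and of 495 in the male nuclei 46 came from 1 nucleus and 271 from the top 10. The pituitary marker list summed to 9.35 and 19.6 there, and its part in the level of Dcc was not tested.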
